A study of Mus musculus with 9 samples.

Results

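The 8 genes followed here encode transcription factors linked to stem cell states, and they were measured across the 9 libraries of this series: Sox2, Bach1, Klf4, Myc, Sox4, Sox9, Pou5f1 and Nanog. They were chosen by symbol, and each of the 8 matched 1 of the 55492 rows of the deposited gene table. The RNA came from D2.OR (also spelled D2.0R), a mouse mammary adenocarcinoma line with no transgene or agent named in the labels. All libraries share 1 treatment: cells were loaded with the dye CellTrace Far Red, which is shared out at every division, grown for a week in 2% serum (10% in maintenance) and sorted. The labels list 3 sorts of sample (dye-positive, dye-negative and bulk) numbered 1 to 3 each but attach none of these names to a library, so 0 of 9 libraries have a group, and each is called here by the number in its title. No value below is assigned to quiescent or dividing cells.

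SOX2, OCT4 (the product of Pou5f1) and NANOG form the core of the network that keeps embryonic stem cells pluripotent, and SOX2, OCT4, KLF4 and MYC together can return differentiated cells to that state. In adult epithelia these factors have other roles: SOX9 and SOX4 act in progenitors and carcinomas of the breast, KLF4 in epithelial differentiation and cell cycle arrest, and MYC, as a dimer with MAX, in growth and biosynthesis. BACH1 is a repressor that pairs with small MAF proteins at genes of haem and iron handling and is released from DNA by haem.

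Levels are given as CPM, the estimated counts of a gene per 1e+06 counts of the scaled library. Of the 8 genes 6 passed the filter on low counts and are called expressed here, and 2 did not pass. Pou5f1 had 0 counts in 7 libraries and 1 count in each of the other two, libraries 8 and 9. Nanog had between 0 and 4 counts per library, or at most 0.132 CPM, in library 4. The detection floor used here, 3 counts in a library, stood for 0.0742 CPM in the deepest library (number 7) and 0.164 CPM in the shallowest (number 9). Both genes were therefore at or near the floor, and both have processed pseudogene copies among which reads can be shared. No fold difference between libraries is given for either. Gm19553, an antisense gene that shares 317 exon bases with Pou5f1, had 0 counts in every library.

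The 6 expressed genes spanned a broad range of levels. Only values per kilobase of exon can be compared between genes. On that scale Sox4 had a median over the libraries of 65.2 CPM per kb and Myc of 56.2. Sox9 followed at 14.99, Sox2 at 11.02, and Bach1 and Klf4 both at 10.5 CPM per kb. Sox4 and Myc lay above 94.8% and 93.6% of the 12802 tested genes with a known length, and the other expressed members above 63.3% to 72.5% of them. With the length of the longest transcript in place of all exons the Myc median (65.3) and the Sox4 median (65.2) changed places, as did those of Bach1 (11.09) and Sox2 (11.02). The order inside each of these pairs is therefore not settled.

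**Figure D1:**
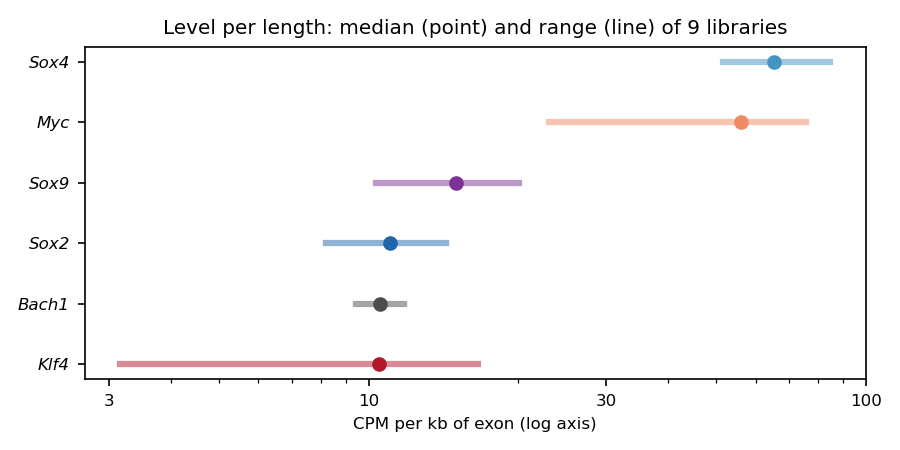
Level of the 6 expressed members per kilobase of exon, on a log axis, as the median (point) and the range (line) of the 9 libraries. Sox4 and Myc have medians of 65.2 and 56.2 CPM per kb, while Klf4, at the bottom, has the longest line, from 3.16 to 16.6 CPM per kb.

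All 6 expressed genes passed the filter on low counts and their counts were more dispersed over the libraries than sampling allows (chi-square test over 12813 genes, Benjamini-Hochberg adjusted), as did 94.1% of all genes tested. A gene is called variable here only if its highest and lowest library also differed at least 2-fold. That held for 2 of the 6, Klf4 and Myc, beside 28.0% of all tested genes. The median range of the 6 was 0.88 on the log2 scale, against 0.69 over all tested genes. The test covers counting error alone. In RNA from many cells, a change in the share of cells that express a gene and a change in RNA per cell cannot be told apart. The test also does not tell differences between cells from differences between sorts or library preparations, and no source used here says whether any libraries came from separate cultures.

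**Figure D2:**
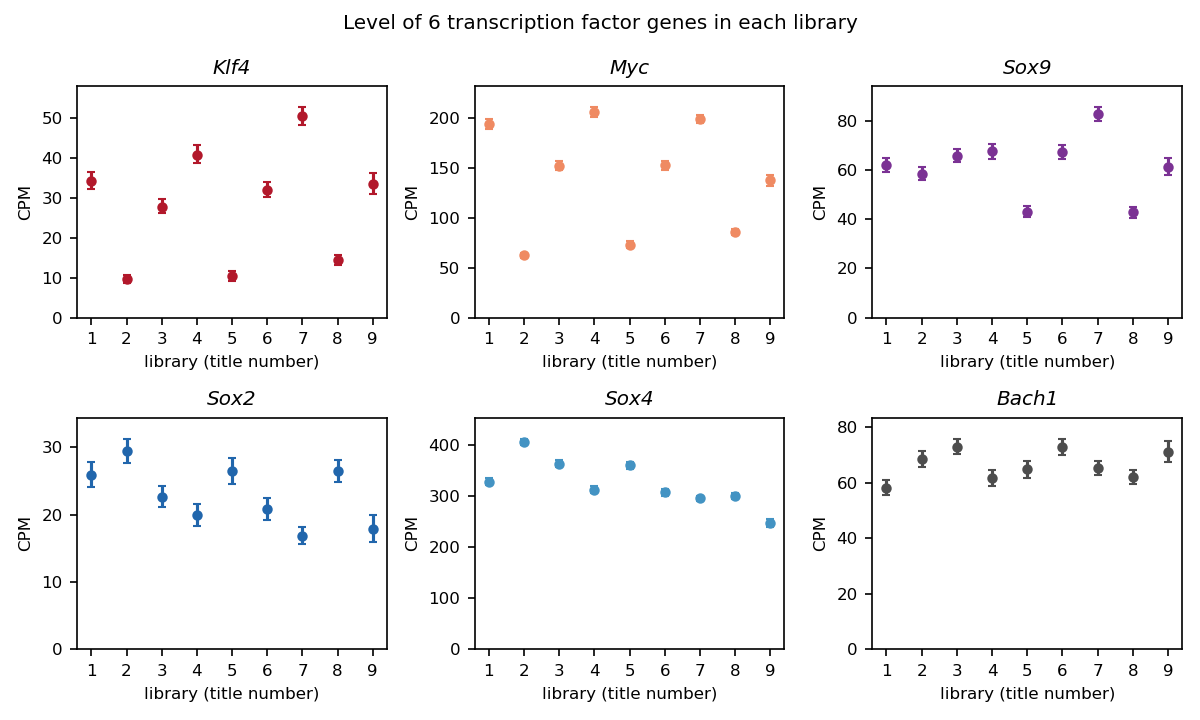
CPM of the 6 expressed members in each library; points are single libraries and bars their exact 95% Poisson intervals. Klf4 and Myc are lowest in libraries 2, 5 and 8, where Sox2 has its 3 highest values, and Bach1 moves least, between 58.2 and 72.9 CPM.

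Klf4 (ENSMUSG00000003032, GRCm38 chromosome 4 at 55527143 to 55532466, minus strand), a zinc finger factor, had the widest range of the group. From library 1 to library 9 it measured 34.2, 9.64, 27.8, 40.8, 10.3, 32.0, 50.5, 14.3 and 33.5 CPM. Libraries 2, 5 and 8 were low and the other 6 were all higher. Library 7, the highest, exceeded library 2, the lowest, 5.24-fold (95% interval 4.67 to 5.89, counting error only), a range wider than that of 96.3% of tested genes. Libraries 2 and 5 did not differ beyond counting error (ratio 1.07, 0.91 to 1.26), nor did the neighbours 1 and 9 (1.02, 0.92 to 1.13) or 9 and 6 (1.05, 0.95 to 1.16).

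The 250 bases before the RefSeq start of Klf4 (chr4:55532476-55532725 in GRCm38.p6, minus strand, 5′ to 3′) are shown because this gene varied most, beside those of Sox2 (chr3:34649745-34649994, plus strand), which was farthest from it in profile, and Bach1 (chr16:87698704-87698953, plus strand), which varied least. Capitals mark a match to 1 of 5 motifs searched on both strands: the E-box of MYC and MAX dimers (CACGTG), a box that KLF factors bind (CACCC), the core of sites for SOX factors (AACAAT), the core shared by sites for AP-1 and for MAF dimers (TGANTCA), and the octamer recognised by OCT4 (ATGCAAAT). The motifs were counted separately.

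Klf4: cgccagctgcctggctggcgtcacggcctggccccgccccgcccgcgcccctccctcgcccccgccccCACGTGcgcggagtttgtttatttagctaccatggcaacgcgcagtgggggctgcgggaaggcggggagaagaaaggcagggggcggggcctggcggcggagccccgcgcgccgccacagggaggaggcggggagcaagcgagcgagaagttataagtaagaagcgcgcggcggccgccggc

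Sox2: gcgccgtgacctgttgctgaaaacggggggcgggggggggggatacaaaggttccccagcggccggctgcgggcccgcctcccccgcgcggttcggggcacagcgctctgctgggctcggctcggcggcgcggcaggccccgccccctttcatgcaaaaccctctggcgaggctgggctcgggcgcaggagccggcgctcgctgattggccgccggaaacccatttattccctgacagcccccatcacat

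Bach1: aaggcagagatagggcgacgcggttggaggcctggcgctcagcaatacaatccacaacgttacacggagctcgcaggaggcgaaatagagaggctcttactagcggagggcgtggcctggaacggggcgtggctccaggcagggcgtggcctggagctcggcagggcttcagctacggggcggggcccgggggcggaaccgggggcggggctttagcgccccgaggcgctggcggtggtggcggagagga

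The Klf4 window holds 1 match, an E-box whose first base lies at position -182 from the start. An E-box occurs in 6.02% of all 32851 promoter windows of this length, CACCC in 52.0%, AACAAT in 9.42%, TGANTCA in 6.75% and the octamer in 1.60%. The Sox2 and Bach1 windows hold none of these 5 strings. The RefSeq start used for Sox2, 34649995, lies upstream of its GENCODE start, 34650405, so its window does not adjoin the latter. The 3 windows are rich in G and C (74%, 72% and 69.2% in the same order). A match describes these letters and shows no binding. Windows were available for 6 of the 8 members, all but Myc and Sox9. Of those not shown, the Sox4 window held no match. Pou5f1 held 5 CACCC before its start at 35506032 and 1 AACAAT before that at 35508807. Nanog held 3 CACCC before its start at 122707565 and no match before that at 122707489.

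Myc (ENSMUSG00000022346, chromosome 15 at 61985391 to 61990374) encodes a basic helix-loop-helix factor. Its values from library 1 to library 9 were 195, 62.6, 153, 206, 73.3, 153, 199, 86.0 and 138 CPM. The same 3 libraries, 2, 5 and 8, were again the lowest, and library 4 the highest. The highest and lowest differed 3.29-fold (3.14 to 3.46), a range above that of 91.1% of tested genes. The pairs 7 and 1 (ratio 1.02, 0.99 to 1.06) and 6 and 3 (1.00, 0.96 to 1.04) were within counting error of each other. Every other step in the order of the Myc levels exceeded it.

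Sox9 (ENSMUSG00000000567, chromosome 11 at 112782224 to 112787760), an HMG box factor that also directs cartilage formation, measured 62.0, 58.6, 65.9, 67.6, 43.1, 67.5, 82.9, 42.8 and 61.4 CPM in title order. Libraries 5 and 8 were low and library 7 was high, with the remaining libraries between 58.6 and 67.6 CPM. The range was 1.94-fold (1.82 to 2.06), 0.95 on the log2 scale and so just short of the 2-fold limit (adjusted p = 1.87e-148, chi-square test). Libraries 5 and 8 were alike within counting error (1.01, 0.94 to 1.09).

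Sox2 (ENSMUSG00000074637, chromosome 3 at 34650405 to 34652461), a single-exon HMG box gene, measured 25.9, 29.5, 22.7, 19.9, 26.4, 20.8, 16.9, 26.4 and 17.9 CPM. Its highest values were those of libraries 2, 5 and 8, and the lowest was that of library 7. The range was 1.75-fold (1.59 to 1.93), 0.80 on the log2 scale (adjusted p = 1.49e-41, chi-square test). Sox2 lies inside the long noncoding gene Sox2ot on the same strand. The annotated exons of the pair share 0 bases, and Sox2ot had at most 22 counts in a library (0.625 CPM, library 2) and 0 in library 9.

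Sox4 (ENSMUSG00000076431, chromosome 13 at 28948919 to 28953713) is another single-exon HMG box gene. It measured 328, 406, 364, 313, 360, 307, 296, 301 and 247 CPM from library 1 to library 9. Libraries 2 and 9 formed the top and bottom of its order, 1.64-fold apart (1.59 to 1.70), and without library 9 the range shrank from 0.71 to 0.46 on the log2 scale. The annotation places Gm26735, a long noncoding gene on the opposite strand, over 2616 bases of the Sox4 exon. No gene identifier in the deposited counts matched Gm26735, so it has no values here. With strand use in counting not stated, reads from the pair cannot be told apart.

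Bach1 (ENSMUSG00000025612, chromosome 16 at 87698945 to 87733346) moved least. Its values in title order were 58.2, 68.4, 72.9, 61.7, 64.7, 72.8, 65.1, 61.9 and 71.1 CPM. No 2 neighbours in the order of its levels differed beyond counting error, although the ends of the order did (1.25-fold, 1.18 to 1.33, adjusted p = 1.09e-18, chi-square test). Its range, 0.32 on the log2 scale, was wider than that of only 11.5% of tested genes.

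**Figure D3:**
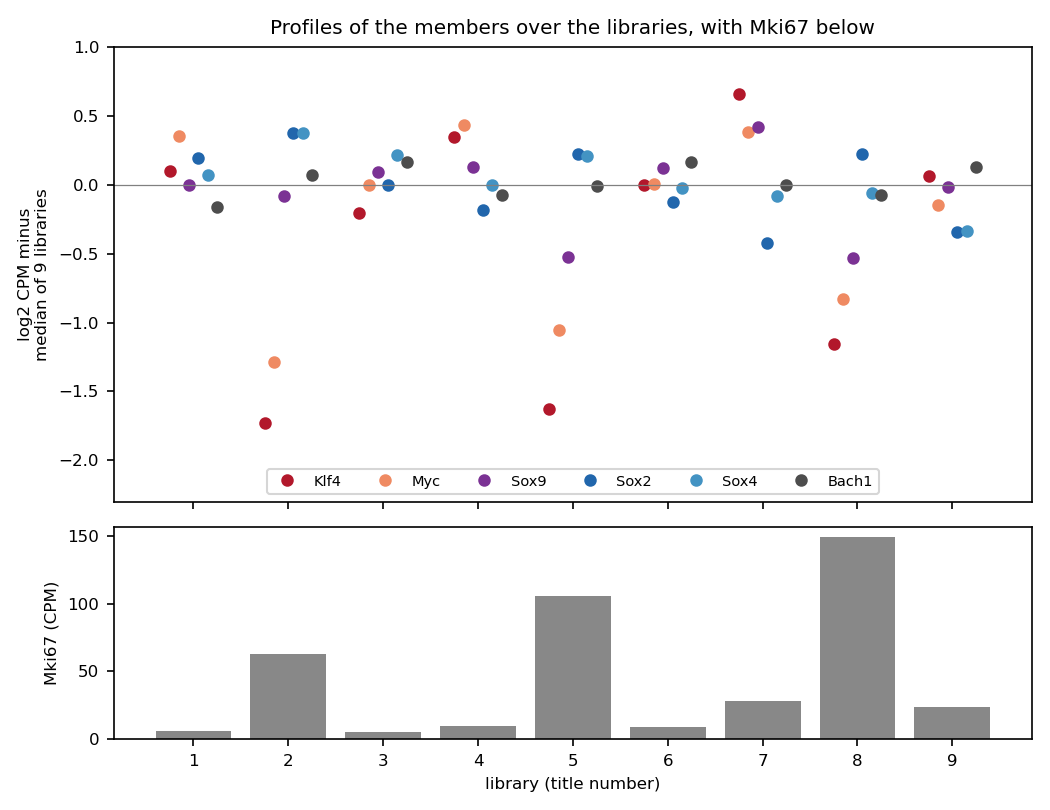
Upper panel: log2 CPM of each expressed member minus its own median over the 9 libraries, with points of a library set side by side. Lower panel: CPM of Mki67, the gene of the Ki-67 protein of cycling cells. Klf4 reaches -1.73 and Myc -1.28 in library 2, while Sox2 and Sox4 stand at 0.38 there, and Mki67 is highest in libraries 2, 5 and 8.

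The title numbers can be laid out in 3 blocks (1 to 3, 4 to 6, 7 to 9) and by position within a block. These layouts use the title numbers alone, stand for no labelled condition, and were compared without a test. For the second position of each block, libraries 2, 5 and 8, the values of 4 of the 6 expressed members did not overlap those of the other 6 libraries, beside 39.1% of all tested genes. Klf4 lay at 9.64 to 14.3 CPM in these 3 and at 27.8 to 50.5 CPM in the others. Between the nearest values, library 3 against library 8, there was a 1.94-fold gap (1.74 to 2.16). Myc lay at 62.6 to 86.0 against 138 to 206 CPM, with a gap of 1.60-fold (1.52 to 1.69) between libraries 9 and 8. For the other two the gap was within counting error: Sox9 was lower, with a gap of 1.05-fold (0.97 to 1.13), and Sox2 higher, with a gap of 1.02-fold (0.92 to 1.13). Scaled by total counts alone, Sox9 overlapped. Sox4 and Bach1 overlapped under each scaling.

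Libraries 2, 5 and 8 stood apart in more than these genes. Mki67 measured 62.9, 106 and 149 CPM in them and 5.64, 4.98, 9.79, 9.20, 28.1 and 24.1 CPM in libraries 1, 3, 4, 6, 7 and 9, and 11 of 12 listed cell division genes were separated upwards in them, beside 19.0% of all tested genes. The summed level of 8 mesenchymal markers was 13641, 12807 and 11863 CPM in libraries 2, 5 and 8 against 6410 to 8937 CPM elsewhere, and that of 8 mammary epithelial markers 410, 511 and 783 CPM against 228 to 375 CPM. Of the tested markers, 3 of 5 mesenchymal ones and 1 of 3 epithelial ones were separated upwards. The mesenchymal ones were Vim, Col1a1 and Col3a1, which made up most of the mesenchymal sum, while Pdgfra and Pdgfrb overlapped. The epithelial one was Krt8, at 307, 411 and 662 CPM against 146 to 283 CPM. Krt18 (38.0 to 156 CPM) and Cdh1 (5.46 to 13.0 CPM) overlapped. Among these markers Epcam, Krt5, Krt17 and Krt19 of the epithelial list and Dcn, Lum and Thy1 of the mesenchymal list stayed under 1 CPM throughout. The part of any of these in the Klf4 and Myc values was not tested. All 7 leukocyte, 5 endothelial and 7 embryonic or germ cell markers were under 1 CPM in every library, with sums of at most 0.208, 0.602 and 0.123 CPM.

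In the third against the first position of the blocks (libraries 3, 6 and 9 against 1, 4 and 7), 3 of 6 members did not overlap, beside 22.2% of tested genes. Myc was lower in 3, 6 and 9, at 138 to 153 against 195 to 206 CPM, with a gap of 1.27-fold (1.23 to 1.32). Klf4 was lower too, at 27.8 to 33.5 against 34.2 to 50.5 CPM, but its gap of 1.02-fold (0.92 to 1.13) was within counting error. Bach1 was higher, at 71.1 to 72.9 against 58.2 to 65.1 CPM, with a gap of 1.09-fold (1.02 to 1.17). Of the 5 layouts compared, this was the only one in which Bach1 separated.

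Between whole blocks the members' counts were near the shares of all tested genes. Libraries 7 to 9 did not overlap 1 to 3 for 1 of 6 members (20.3% of tested genes), nor 4 to 6 for 1 of 6 (8.44%), in both cases Sox4. Sox4 lay at 247 to 301 CPM in libraries 7 to 9, at 307 to 360 in 4 to 6 and at 328 to 406 in 1 to 3. Its gap to 1 to 3 was 1.09-fold (1.06 to 1.12) and its gap to 4 to 6 was 1.02-fold (0.99 to 1.05), within counting error. Between libraries 4 to 6 and 1 to 3 no member separated, beside 8.40% of tested genes.

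The members were set side by side in pairs by the root mean square difference of their profiles, each centred on its median (15 pairs, 9 libraries, a description without a test). Sox2 and Sox4 were the closest pair, 0.18 apart on the log2 scale, followed by Bach1 and Sox4 at 0.23. Klf4 and Myc were 0.31 apart although their own ranges were 2.38 and 1.72. Sox2 and Klf4 were farthest apart, at 1.13, and lay on the same side of their medians in 1 of 9 libraries. Klf4 and Myc did so in 6. A gene's own median library lies on neither side and cannot match: library 3 for Sox2 and Myc, library 6 for Klf4. Flat profiles are close to each other by construction.

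Among 9851 other genes with a mean of at least 5 CPM, the closest to Klf4 by the same measure were Wars, a tryptophan tRNA synthetase gene (0.14), Ampd3, an AMP deaminase gene (0.14), and Slc7a5, a transporter gene for large neutral amino acids (0.15), where the median gene was 0.92 away. Slc7a5 ran from 110 CPM in library 2 to 574 CPM in library 7. For Myc they were Abraxas1, a scaffold of a BRCA1 complex (0.11), Fyn, a Src family kinase gene (0.12), and Bcl2l1, which encodes the survival protein BCL-XL (0.14), with the median gene at 0.67. Nearest to Sox2 were Polm, a DNA polymerase gene of end joining (0.058), Denn2b (0.076) and Cyp4f16 (0.077). Nearest to Bach1 were Clcn4 (0.049), Plpp6 (0.056) and Trak2 (0.058). Those of Sox4 were the collagen gene Col4a5 (0.072), Marcks (0.073) and the deacetylase gene Hdac5 (0.076), and those of Sox9 the haem transporter gene Slc48a1 (0.11), Gatc (0.11) and the epoxide hydrolase gene Ephx1 (0.12). By the mean absolute difference 0 of the 3 neighbours of Sox9 and 1 of the 3 of Sox4 stayed among the closest, and with total counts alone 3 and 1.

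Of 19 listed SOX genes 8 were tested and 11 were under 1 CPM everywhere, 4 of these at 0 counts. The variable ones were 3 of 8 (28.0% of all tested genes), each of low CPM and none of them a member: Sox8 (0.341 to 1.68 CPM), Sox21 (0.348 to 1.32 CPM) and Sox13 (1.04 to 3.28 CPM). Sox4, Sox9, Sox12 and Sox2, of highest CPM in the family, were all under the 2-fold limit, as was Sox5. These CPM are not divided by gene length. Sox1 and Sox3, the closest relatives of Sox2, had 1 and 0 counts in all.

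Of 17 KLF genes 13 were tested and 7 were variable (28.0% of all tested genes), with a median range of 1.04 on the log2 scale against 0.69 over all tested genes. Klf5, a relative of Klf4 in epithelial and embryonic cells, had the widest range: 33.7, 8.70, 24.8, 39.5, 11.3, 30.9, 51.9, 16.9 and 44.3 CPM in title order. Its lowest and highest libraries, 2 and 7, were those of Klf4. Klf15 spanned 6.69 CPM (library 5) to 21.1 CPM (library 6). Klf2, a further relative used by embryonic stem cells, showed the reverse layout: 19.9, 25.5 and 26.1 CPM in libraries 2, 5 and 8 and 8.36 to 14.8 CPM elsewhere. In all, 6 of the 13 were separated downwards in those 3 libraries (20.1% of all tested genes) and 1, Klf2, upwards (19.0%).

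**Figure D4:**
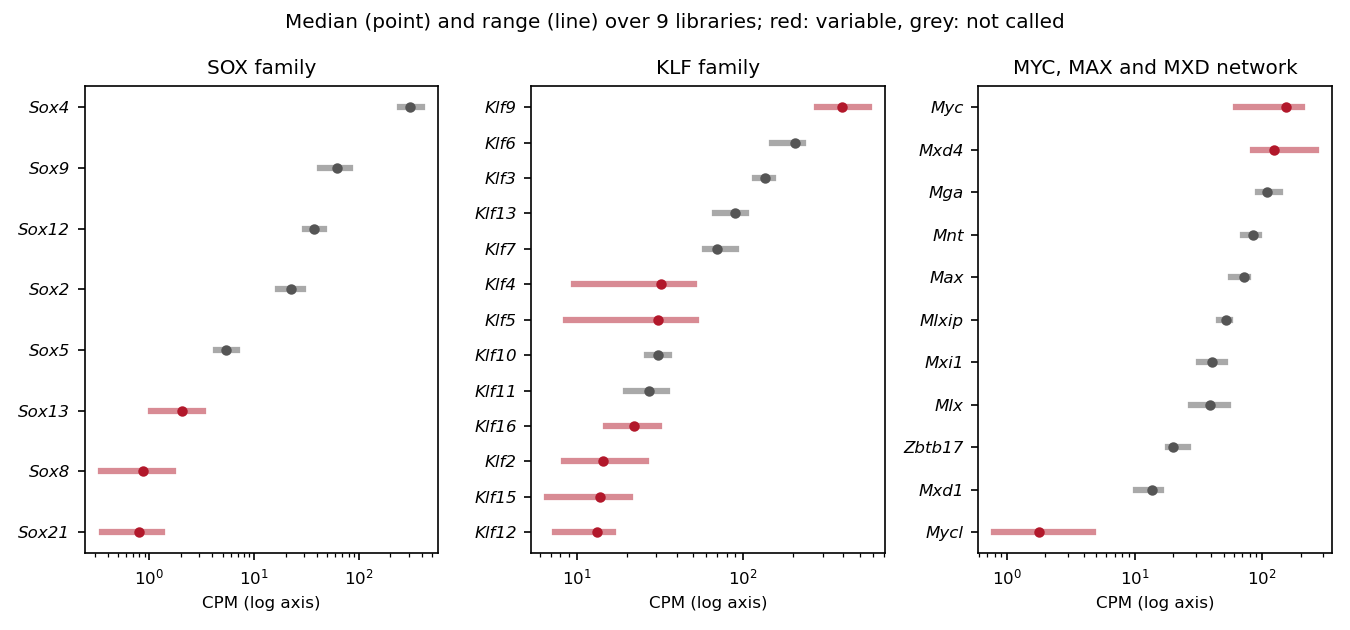
Median (point) and range (line) in CPM, on log axes, of the tested genes of the SOX family, the KLF family and the MYC, MAX and MXD network. Red marks the genes called variable: 3 of 8, 7 of 13 and 3 of 11. Levels are not divided by gene length, so rows should be compared by the length of their lines.

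In the network of MYC, its partner MAX and their antagonists, 11 of 14 genes were tested and 3 were variable (27.3%, beside 28.0% of all tested genes). Besides Myc these were Mycl, a MYC relative at 0.794 to 4.70 CPM, and Mxd4, a repressor that competes with MYC for MAX. Mxd4 measured 105, 256, 125, 94.0, 263, 123, 84.4, 262 and 102 CPM, highest in the 3 libraries in which Myc was lowest. Max itself, not called variable, lay at 56.7 to 60.9 CPM in libraries 2, 5 and 8 and at 69.1 to 77.8 CPM elsewhere. In those 3 libraries the values of 5 of the 11 were below all others (20.1% of all tested genes) and of 1, Mxd4, above (19.0%). Mycn, the neural relative, did not pass the filter and ran from 0.244 CPM in library 1 to 3.15 CPM in library 8. Mxd3 and Mlxipl did not pass it either. Mxd3 ran from 0.0566 CPM in library 3 to 3.70 CPM in library 8, and Mlxipl from 0.109 CPM in library 9 to 1.04 CPM in library 1.

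All 20 listed MYC target genes were tested and 11 were variable (28.0% of all tested genes), with a median range of 1.097 on the log2 scale against 0.69 over all tested genes. Of the 20, 17 were lowest in library 2, where 18.15% of all tested genes were lowest, and 17 were highest in library 7 (14.31% of all). Shmt2, which encodes an enzyme of mitochondrial one-carbon metabolism, measured 367, 84.0, 328, 379, 98.6, 334, 385, 137 and 356 CPM. Tfrc, the transferrin receptor gene, ran from 55.4 CPM in library 2 to 173 CPM in library 7. In libraries 2, 5 and 8 the values of 10 of the 20 were below all others (20.1% of all tested genes) and of 0 above (19.0%).

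Of 9 tested BACH, CNC and small MAF genes 2 were variable (22.2%, beside 28.0% of all tested genes). Mafg, a small MAF partner of BACH1, lay at 106 to 127 CPM in libraries 2, 5 and 8 and at 188 to 221 CPM elsewhere, and Nfe2l3 ran from 2.40 to 8.77 CPM. Nfe2l2, a CNC gene not called variable, lay at 133 to 145 CPM in libraries 2, 5 and 8 and at 198 to 246 CPM elsewhere. In those libraries the values of 4 of the 9 were below all others (20.1% of all tested genes) and of 2 above (19.0%). Of 10 haem, iron and thiol genes bound by BACH1 5 were variable, again beside 28.0%, with a median range of 0.99 on the log2 scale against 0.69 over all tested genes. Hmox1, which encodes haem oxygenase 1, the best known BACH1 target, measured 579, 212, 396, 501, 184, 378, 443, 165 and 414 CPM. Slc7a11, a cystine transporter gene, spanned 79.1 CPM (library 5) to 632 CPM (library 1). In libraries 2, 5 and 8 the values of 7 of the 10 lay below all others (20.1% of all tested genes), while those of Bach1 there, 61.9 to 68.4 CPM, fell inside its range elsewhere.

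**Figure D5:**
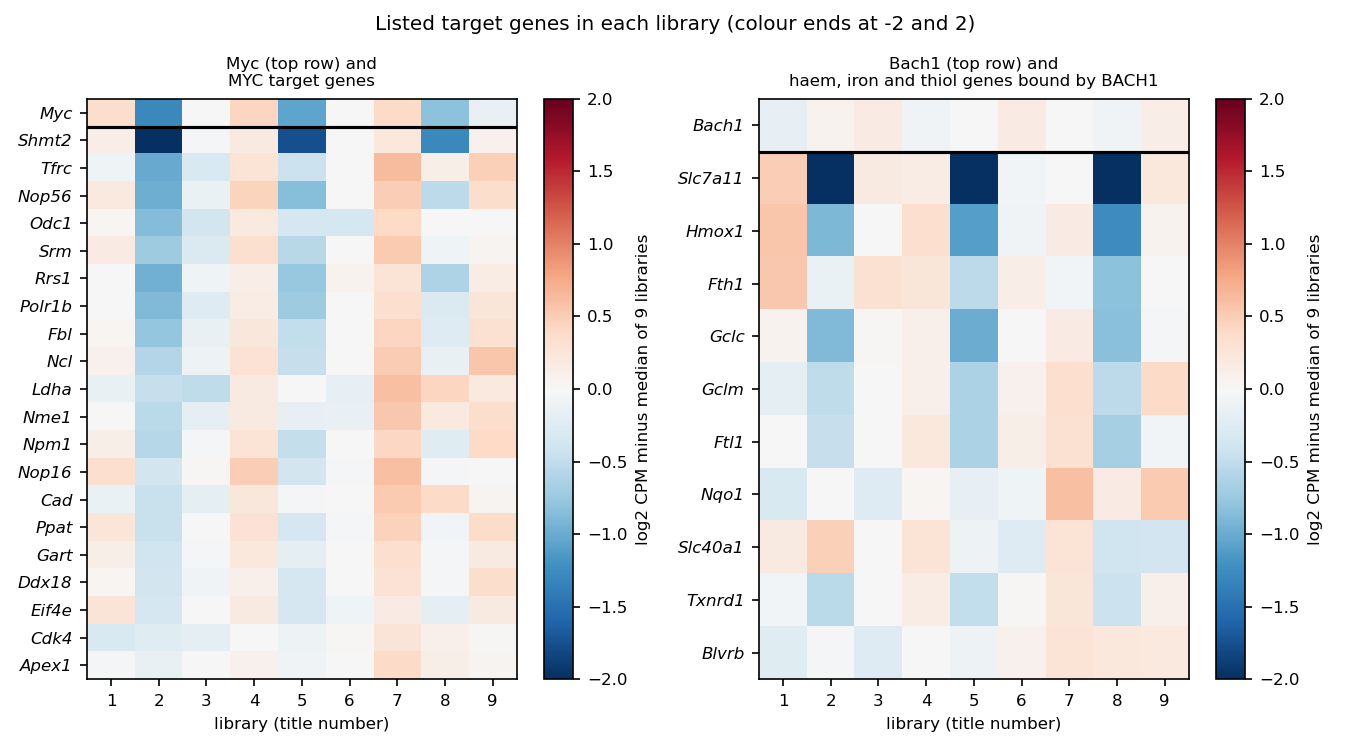
Log2 CPM minus the gene's median over the 9 libraries, in colour, for Myc and 20 listed MYC targets (left) and for Bach1 and 10 listed genes it binds (right), with genes ordered by range below the factor. Column 2 is blue for Myc and each of the 20 targets, columns 2, 5 and 8 are blue for Slc7a11 and Hmox1, and the Bach1 row stays pale. Colour is capped at -2 and 2, which Slc7a11 exceeds.

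Of 26 listed genes of the pluripotency network, Pou5f1 and Nanog among them, 22 stayed under 1 CPM in every library, 19 of them never reached 3 counts and 8 had 0 counts in all. The 4 that were tested were Klf2 and Klf5, described above and called variable, and Lin28b (1.93 to 2.96 CPM) and Lefty1 (2.52 to 4.78 CPM), which were not. Zfp42, Esrrb, Dppa3 and Tdgf1, which mark embryonic stem cells, had at most 3 counts over all libraries. Of the cartilage genes controlled by SOX9, 8 of 11 were under 1 CPM everywhere. The 2 tested were Col11a2, a collagen gene called variable at 22.2 to 59.7 CPM, and Sox5 at 4.37 to 6.86 CPM. Col11a1, which did not pass the filter, lay at 1.00 to 1.36 CPM in libraries 2, 5 and 8 and at 0.0989 to 0.255 CPM elsewhere. Of the 2 tested, 1, Col11a2, lay below all others in those libraries (20.1% of all tested genes) and 0 above (19.0%).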

How the data were processed

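The authors deposited 1 table of expected counts per gene, that is whole-number estimates with no scaling for depth. The submitters' processing notes name cutadapt 2.3, STAR 2.7.8a, RSEM 1.3.3 and build GRCm38; these notes give neither annotation release nor strand use. Library totals ran from 18732737 to 41243036 counts, so 1 CPM rested on 18.3 to 40.4 scaled counts. All 9 count columns matched a title, and 0 were left unmapped.

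Genes were kept by the edgeR filter without groups (edgeR 4.0.16, R 4.3.3; 10 counts at the median library size, 15 in total), which a gene must pass in every library, leaving 12813 genes. TMM factors came from these genes. Log2 CPM used a prior count of 2. Each gene was tested for dispersion beyond counting noise (chi-square, Benjamini-Hochberg, threshold 0.05) and called variable with a range of at least 1 on the log2 scale; the script was tested on simulated data. A difference between libraries that are all of unknown kind could not be tested with a quasi-likelihood fit. Intervals are exact at 95% (Poisson, or conditional binomial for a ratio).

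The genes, lists, motifs and tests were chosen with earlier results of these data known, so counts over lists are descriptions. Named in every case were the 8 members, Mki67, Hmox1, the 3 nearest genes of each expressed member (predicted genes left out, mean of at least 5 CPM), the 2 tested genes of widest range in each pathway list, and genes overlapping a member. Other genes (such as Sox13, Max, Mycn, Mxd3, Mlxipl, Nfe2l2, Col11a1, Sox1, Sox3, Sox12, Lin28b, Lefty1 and the silent stem cell genes) were picked after their values were seen. Of the cell division list, Ccnb2 and Hmmr are not described. Coordinates and exon lengths are those of GENCODE M21 on GRCm38, and promoter windows those of RefSeq on GRCm38.p6. Other scalings, filters, prior counts and leaving out each library were tried.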

Additional observations from a re-analysis of the deposited data

How the results depend on the processing

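The count of 2 variable members was 2 under each of the 5 other settings (RLE size factors, total counts only, no filter, a mean of at least 1 CPM, a prior count of 0.5) and without any 1 library, and Klf4 and Myc were the variable ones throughout. The range of Klf4 lay between 2.06 (without library 7) and 2.38 without 1 library and between 2.31 and 2.39 otherwise, that of Myc between 1.48 (without library 2) and 1.72, and between 1.64 and 1.72, on the log2 scale. Sox9, the member nearest the 2-fold limit, stayed between 0.66 (without library 7) and 0.97. Over all genes, 3268 to 3560 were variable without 1 library, and 6412 with no filter on low counts, where more genes were tested. Of the layouts by title number, libraries 7 to 9 against 4 to 6 gave 0 separated members with total counts only, since Sox4 then overlapped; the cause was not tested. Counts this deep bound Pou5f1 and Nanog, with upper 95% limits (counting error only) of at most 0.305 CPM (library 9) and 0.338 CPM (library 4). They leave differences between libraries in these genes unmeasured. No paired analysis was possible because the labels give no groups.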

Other observations

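Among 18 listed mammary lineage and stem cell transcription factors 15 were tested and 9 were variable (60%, beside 28.0% of all tested genes). Trp63, which encodes the basal factor p63, measured 4.95, 6.20, 3.65, 2.24, 5.30, 1.75, 0.89, 3.34 and 0.49 CPM from library 1 to library 9, with libraries 7 and 9 the lowest. Zeb1 encodes a factor of epithelial-mesenchymal transition. It lay at 3.30 to 3.90 CPM in libraries 1 to 3, 1.53 to 2.56 in 4 to 6 and 0.328 to 0.958 in 7 to 9. It was likewise lowest in library 9, the shallowest. Others were picked after their values were seen: Foxc1, a forkhead factor gene, at 45.2 to 217 CPM, Esr1, the oestrogen receptor gene, at 3.61 to 15.8 CPM, and Snai1, at 14.4 to 56.6 CPM. Foxc1 also fell by block, from 189 to 217 CPM through 105 to 159 CPM to 45.2 to 96.4 CPM. Over all tested genes, 8.40% separated between libraries 4 to 6 and 1 to 3, and 8.44% between 7 to 9 and 4 to 6. Bmi1, a Polycomb gene of stem cell renewal, was flat at 81.5 to 93.8 CPM, and Elf5 and Tbx3 stayed under 1 CPM. Of the 15 tested, 4 lay higher and 1 lower in libraries 2, 5 and 8 than in all others, beside 19.0% and 20.1% of all tested genes.

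Among markers of neural progenitors, a cell type that also uses Sox2, Pax6 was present at 8.65 to 14.9 CPM and Nes, an intermediate filament gene, at 25.8 to 56.8 CPM, while Olig2 had 0 counts. These values were set beside Sox2 without a test.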
